A study of Zea mays with 29 samples.

Results

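The genes described here have identifiers outside a run taken to stand for the varied long arm of maize chromosome 1 (1L). They were picked because their group means differed from diploids alike, in direction and nearly in amount, after loss and after gain of a 1L copy. The genes were chosen from the second of 2 dosage series in maize (Zea mays) leaf. The choice used group mean CPM, the reads of a gene scaled to a fixed total of counted reads per library. Of 40306 listed genes, 37119 have identifiers outside that run, which was set aside, and 13397 of these had a mean of at least 5 CPM overall and at least 1 CPM in diploids. The values compared were log2 of the group mean CPM with 0.5 added. Monosomics and trisomics lay within 0.3 of each other for 7481 genes and differed from diploids in the same direction for 5421, of which 4279 were higher and 1142 lower. The 100 with the largest smaller difference are the members, 80 higher and 20 lower in both aneuploids. Both differences were taken from the same diploid libraries, so a deviation of those diploids moves both of them alike. How much of the shared shift this gives was not tested.

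Series 2 held 4 monosomic plants with 1 copy of 1L, 3 diploid with 2 and 3 trisomic with 3. Series 1, which took no part in the choice, held 4 diploid, 5 trisomic, 3 tetrasomic, 3 haploid and 2 disomic haploid libraries, the last with 2 copies of 1L in an otherwise haploid genome. All are described as biological replicates in the design text, and each series has its own diploid controls. The labels give no plant age or inbred line. The identifiers carry no gene names, and 0 of them occur in the reference table used here. The members therefore have no known function, position, promoter or protein here, so that their place outside 1L rests on identifier numbers alone, the leaf label could not be checked against marker genes, and at most 2 identifiers that were higher and 2 that were lower are printed. Other members are called by their rank within their direction.

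An extra or missing chromosome arm changes the dose of all its genes at once. Genes elsewhere in the genome can respond in trans, because regulators and subunits of multiprotein complexes encoded on the arm leave their usual balance. Such responses can follow the dose, run against it, or go the same way for loss and gain, and the last kind is what the members were chosen for. A haploid plant has fewer copies of every chromosome alike and so keeps the balance, while a disomic haploid has the arm in excess over a haploid genome. In leaf RNA from whole tissue, fewer cells of a type and less RNA per cell cannot be told apart.

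Library totals ran from 13199571 to 19860440 counted reads. Some libraries stood apart from their group over all genes, by a chi-square per gene that would be about 1 for repeat reads of the same RNA. It was 69.3 to 92.3 between diploid replicate 1 of series 1 and the other diploids, against 16.0 to 23.1 among those. It was 98.4 between haploid replicates 2 and 3, 46.5 to 79.1 between monosomic replicate 3 and the other monosomics, against 26.8 to 55.3 among those, and 28.9 to 75.9 among the trisomics of series 1. Some of the results that rest on these libraries are also given without them.

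In series 2 the values below chose the members and are a description without a test. The top-ranked higher member had 4.10, 7.37 and 10.2 CPM in the 3 diploids, 49.5, 53.4, 4.96 and 12.3 in the 4 monosomics and 25.9, 40.4 and 16.2 in the 3 trisomics. Monosomic replicate 3 thus lay among the diploids, although the group means were 7.22, 30.05 and 27.5 CPM. The differences from diploids were 1.98 (log2) in monosomics and 1.86 in trisomics. At the end of the list the last member taken had a smaller difference of 0.463, or 1.38-fold, with 8.56 CPM in diploids, 11.99 in monosomics and 12.3 in trisomics. The first gene not taken had a smaller difference of 0.462, with 21.8, 13.9 and 15.7 CPM in the same order.

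Members varied more between libraries of a group than other genes did. The median SD of log2(CPM + 0.5) within diploids of series 2 was 0.312 over the higher members, 0.394 over the lower members and 0.211 over all 13397 genes. Within trisomics of series 2 it was 0.440, 0.384 and 0.150. The rule used these libraries, and a choice by group means can favour genes that vary in them. Within diploids of series 1, which the rule did not use, the medians were 0.431, 0.491 and 0.284, and within trisomics of series 1 0.424, 0.520 and 0.326. In series 2 all 7 aneuploid libraries lay above all 3 diploids in 8 of the 80 higher members and below them in 1 of the 20 lower members. Among the 13397 genes this held for 1.03% in the higher and 0.112% in the lower direction, and since the rule used these libraries nothing is read from the gap. In the other 72 higher and 19 lower members the groups overlapped.

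Single libraries stood out within their groups. Among the 4 monosomics, replicate 3 was the lowest in 52 of the 80 higher members, and among the 3 trisomics, replicate 2 was the highest in 51 and replicate 1 the lowest in 46. Among the 20 lower members trisomic replicate 2 was the lowest of its group in 15, and diploid replicate 3 the lowest diploid in 15. Averaged over the 80 higher members, log2 CPM was 3.20, 3.40 and 3.35 in the diploids, 4.13, 4.11, 3.61 and 4.09 in the monosomics, and 3.77, 4.26 and 3.96 in the trisomics. Over the 20 lower members it was 5.91, 5.80 and 5.46 in diploids, 5.05, 5.07, 5.28 and 4.68 in monosomics, and 5.23, 4.77 and 5.28 in trisomics. These averages do not overlap between diploids and aneuploids in either list. The members were chosen by differences between these same libraries, so nothing is read from that separation.

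**Figure D1:**
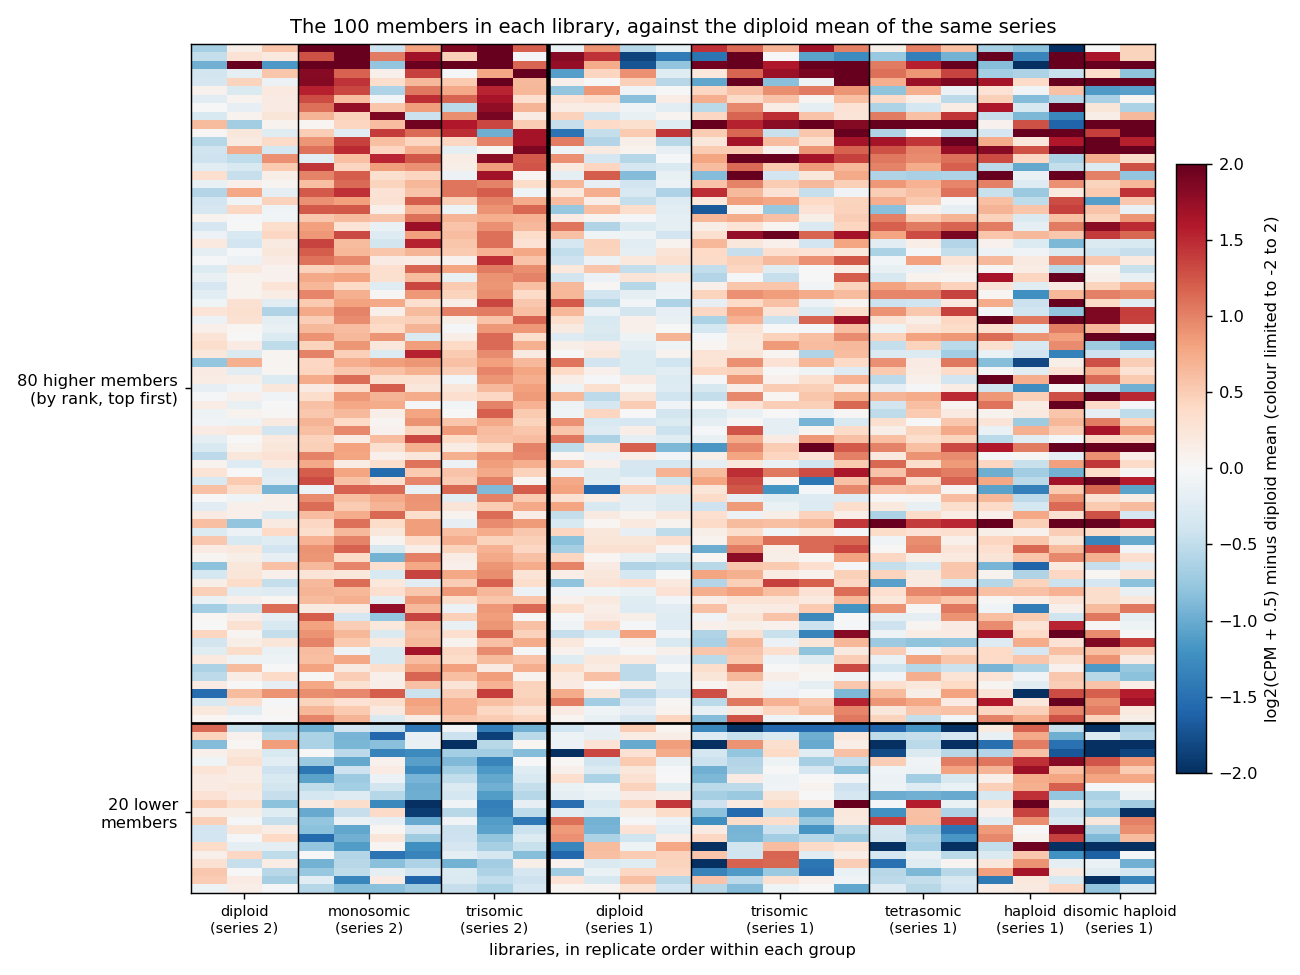
Each row is a member and each column a library, grouped by ploidy, with series 2 left of the thick line and series 1 right of it. Colour gives log2(CPM + 0.5) minus the mean of the diploids of the same series, limited to between -2 and 2. In series 2, which chose the rows, the 80 higher members are mostly red in monosomics and trisomics and paler in monosomic replicate 3. In series 1 red and blue follow the same blocks in many trisomic and tetrasomic columns, with wide variation among haploids.

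The split of 80 higher and 20 lower members changed with the scaling of the libraries. Over the 13397 genes the median difference in CPM from diploids was 0.19 (log2) in monosomics and 0.01 in trisomics. With TMM, which scales libraries so that most genes are level, the medians were 0.05 and -0.04. All 80 higher and all 20 lower members kept their signs in both comparisons. The rule chose them in these libraries by differences larger than this change of scaling, so nothing is read from the kept signs. When the rule was applied to CPM on TMM-scaled library sizes, 50 of the 100 members were chosen again, and the new list held 44 higher and 56 lower genes in place of 80 and 20. Relative to all 13397 genes, the higher members averaged 0.50 above diploids in monosomics and 0.66 in trisomics, and the lower members averaged -0.88 and -0.65.

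Few members passed the gene-wise test in series 2. In edgeR 2 of the 100 members were called in monosomics, where 5.5% of 21825 genes and 1.65% of those outside the run were called, and 0 were called in trisomics, where the shares were 0.266% and 0.21%. At an unadjusted p below 0.05 there were 28 and 33 members, where 10.8% and 6.42% of genes outside the run reached that p. The rule used both contrasts, so these counts only describe how strong single members are.

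The median level per length in series 2 diploids was 3.07 RPKM (reads scaled by gene model length and by library total) for the higher members and 18.8 for the lower members, against 4.56 over the 13397 genes. The rule used those diploids, and in the diploids of series 1 the medians were 4.34, 13.7 and 4.10 RPKM. In series 2 diploids the levels of lower members ran up to 2902 RPKM. Gene models, whose length is implied by the deposited counts and RPKM, had a median of 2756 bp for higher members, 3215 bp for lower members and 4461 bp for all 13397 genes. The members were spread over the identifiers. Of the higher members 8.75% had numbers below the 1L run, against 8.08% of the 13397 genes, and 3 pairs of higher members and 1 pair of lower members next to each other in order lay within 10 identifiers.

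The groups of series 2 were also set against the diploids of series 1. The median difference of series 2 diploids from series 1 diploids was -0.50 (log2 CPM) over the higher members and 0.52 over the lower members, with 0.15 over all 13397 genes. For monosomics of series 2 the medians were 0.29, -0.09 and 0.34, and for trisomics of series 2 they were 0.29, -0.10 and 0.16. The tables were counted separately, so that series and plant group cannot be told apart in these levels, and the rule itself used the series 2 diploids.

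Series 1 was used to ask whether the same genes shift in libraries that did not choose them. It has no monosomics, so only the gain of 1L can be repeated there. All 100 members passed the filter on low counts in series 1 and were tested among 22435 genes. Trisomics, tetrasomics and haploids share the 4 diploids of series 1, and haploids serve in 2 comparisons, so these comparisons are not independent of each other. None of them shares a library with series 2.

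In trisomics of series 1 85 of the 100 members had the direction of series 2. Of the 80 higher members 68, or 85.0%, had a positive log2 fold change, where 42.5% of the 13393 tested genes that met the CPM limits did. Of the 20 lower members 17, or 85.0%, had a negative change, against 57.5%. The higher members had a median change of 0.34 (log2) and the lower members one of -0.40, against -0.05 for the 13393 genes. Leaving out each library in turn gave medians of 0.24 to 0.41 and -0.50 to -0.36. A change beyond 0.5 in the series 2 direction was seen in 36.2% of higher and 45.0% of lower members, against 5.80% and 5.32% of the 13393 genes, and 0 members changed by more than 0.5 the other way. The members were the more variable genes, and how far that sets these shares was not tested.

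**Figure D2:**
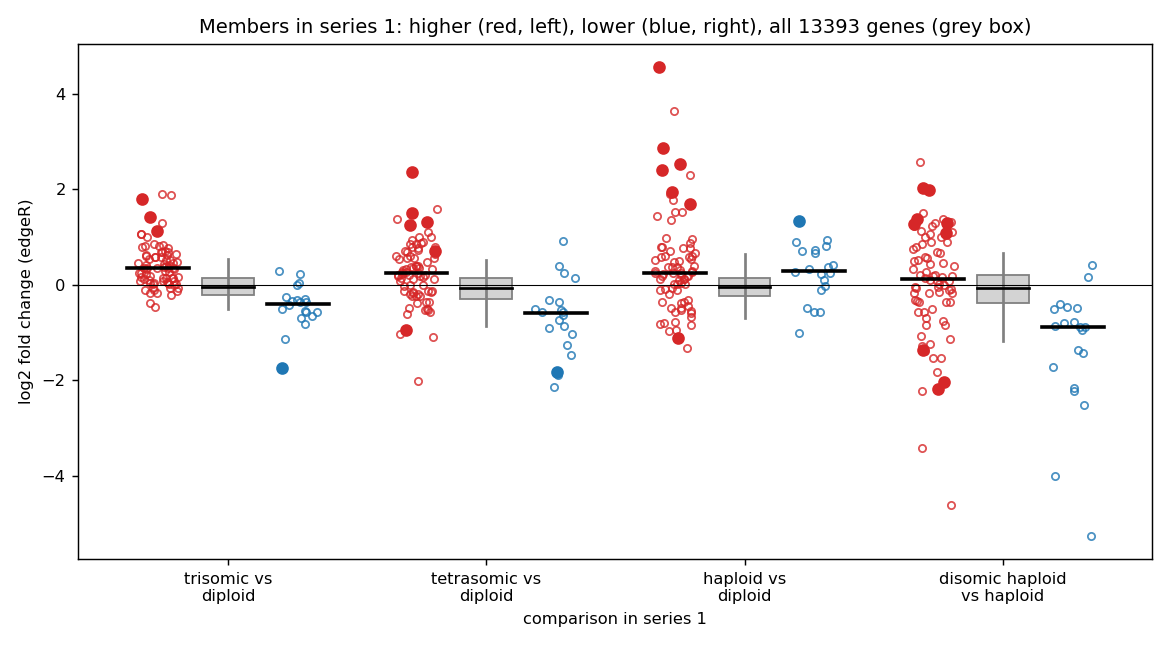
Points are the edgeR log2 fold changes of the 80 higher members (red) and 20 lower members (blue) in 4 comparisons of series 1, filled where the adjusted p was below 0.05, with black lines at their medians. Grey boxes span the quartiles of the 13393 other and member genes that met the CPM limits, with whiskers from the lowest to the highest 5% and a line at the median. In trisomics the medians are 0.34 and -0.40, and in haploids both lie above 0.

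The count of 85 ran from 76 to 89 over the 31 other settings with 100 members that were tried. It was 87 when the members were chosen without monosomic replicate 3. Averaged over the higher members and set against all 13397 genes, expression was -0.53, -0.49, -0.67 and -0.75 (log2) in the 4 diploids of series 1, and -0.46, 0.0019, -0.30, -0.14 and -0.21 in the 5 trisomics. On this measure the groups did not overlap, but trisomic replicate 1 lay only just above the highest diploid. In log2 CPM not set against all genes they did overlap, with 3.84 in trisomic replicate 1 and 3.94 in diploid replicate 1. Over the lower members the same measure was 0.42, 0.70, 1.02 and 0.98 in diploids and 0.09, 0.12, 0.78, 0.41 and 0.39 in trisomics. Here trisomic replicate 3 lay within the diploid range, and diploid replicate 1 was the lowest diploid.

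Single members seldom passed the test in trisomics of series 1. In edgeR 4 of the 100 were called, all in the series 2 direction, where 1.52% of all 22435 genes and 0.511% of the 20534 outside the run were called. The count was 0 without diploid replicate 2, diploid replicate 3 or trisomic replicate 2, 1 without diploid replicate 4 or trisomic replicate 3, and 5 without diploid replicate 1. For these and later counts without a library, the share of all genes called in the same fit is not given. Such counts only describe how the calls depend on single libraries. At an unadjusted p below 0.05 there were 21 members, all in the series 2 direction, while 11.3% of genes outside the run reached that p. All 5 trisomic libraries lay above all 4 diploids in 4 of the 80 higher members, against 1.43% of the 13397 genes, and below them in 1 of the 20 lower members, against 1.28%.

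The 4 called members were 3 higher ones, of rank 10, 23 and 51, and the top-ranked lower one. The gene of rank 10 had 12.7, 23.2, 22.3 and 14.9 CPM in the diploids of series 1 and 78.5, 52.7, 63.3, 78.2 and 64.3 in the trisomics, a change of 1.80 in log2 units (SE 0.42, edgeR adjusted p = 0.0442). Every trisomic library had more than the highest diploid. In series 2 this gene had 16.2, 6.16 and 10.8 CPM in diploids. Monosomics there had 10.55, 14.1, 16.1 and 40.5 CPM and trisomics 32.3, 26.9 and 14.8. Monosomic replicates 1, 2 and 3, and trisomic replicate 3, lay within the diploid range of series 2. The gene of rank 23 averaged 6.17 ± 2.05 CPM in diploids (SD, n = 4) and 17.5 ± 6.74 CPM in the 5 trisomics (SD), a change of 1.42 in log2 units (SE 0.29, edgeR adjusted p = 0.0258), although trisomic replicate 1, at 7.57 CPM, lay below the highest diploid at 9.14.

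Zm00004b035915, the higher member of rank 51, had the smallest p of the higher members in trisomics of series 1, which is why it is named. It had 10.2, 9.24, 8.49 and 18.2 CPM in the diploids and 17.4, 31.4, 23.3, 27.9 and 35.3 in the trisomics. Diploid replicate 4 overlapped the lowest trisomic library. The change was 1.13 in log2 units (SE 0.22, edgeR adjusted p = 0.0244), and over the 9 fits that each left out a library it ran from 1.03 to 1.47 with 6 adjusted p-values below 0.05 and a largest of 0.0757. In series 2 it had 44.4, 36.5 and 30.8 CPM in diploids, 86.4, 63.7, 12.4 and 53.4 in monosomics and 54.7, 62.5 and 50.9 in trisomics. Monosomic replicate 3 had less than any diploid, and the other 6 aneuploid libraries had more than all of them.

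Zm00004b031162, the top-ranked lower member, had the smallest p of the lower members in trisomics. It had 914, 1079, 1709 and 1244 CPM in the diploids of series 1 and 491, 246, 404, 403 and 409 in the trisomics, with every trisomic library below every diploid. The change was -1.74 in log2 units (SE 0.41, edgeR adjusted p = 0.0463, or 0.0539 without the filter on low counts), and it ran from -1.91 to -1.50 with 2 of 9 adjusted p-values below 0.05, the largest at 0.143, when each library was left out. Without trisomic replicate 2, the lowest, the change was -1.60 and the adjusted p in edgeR 0.111. In series 2, which chose it, its mean rested on diploid replicate 1, with 4359, 1455 and 1233 CPM in diploids against 1010, 1528, 1426 and 740 in monosomics and 1915, 760 and 1017 in trisomics.

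**Figure D3:**
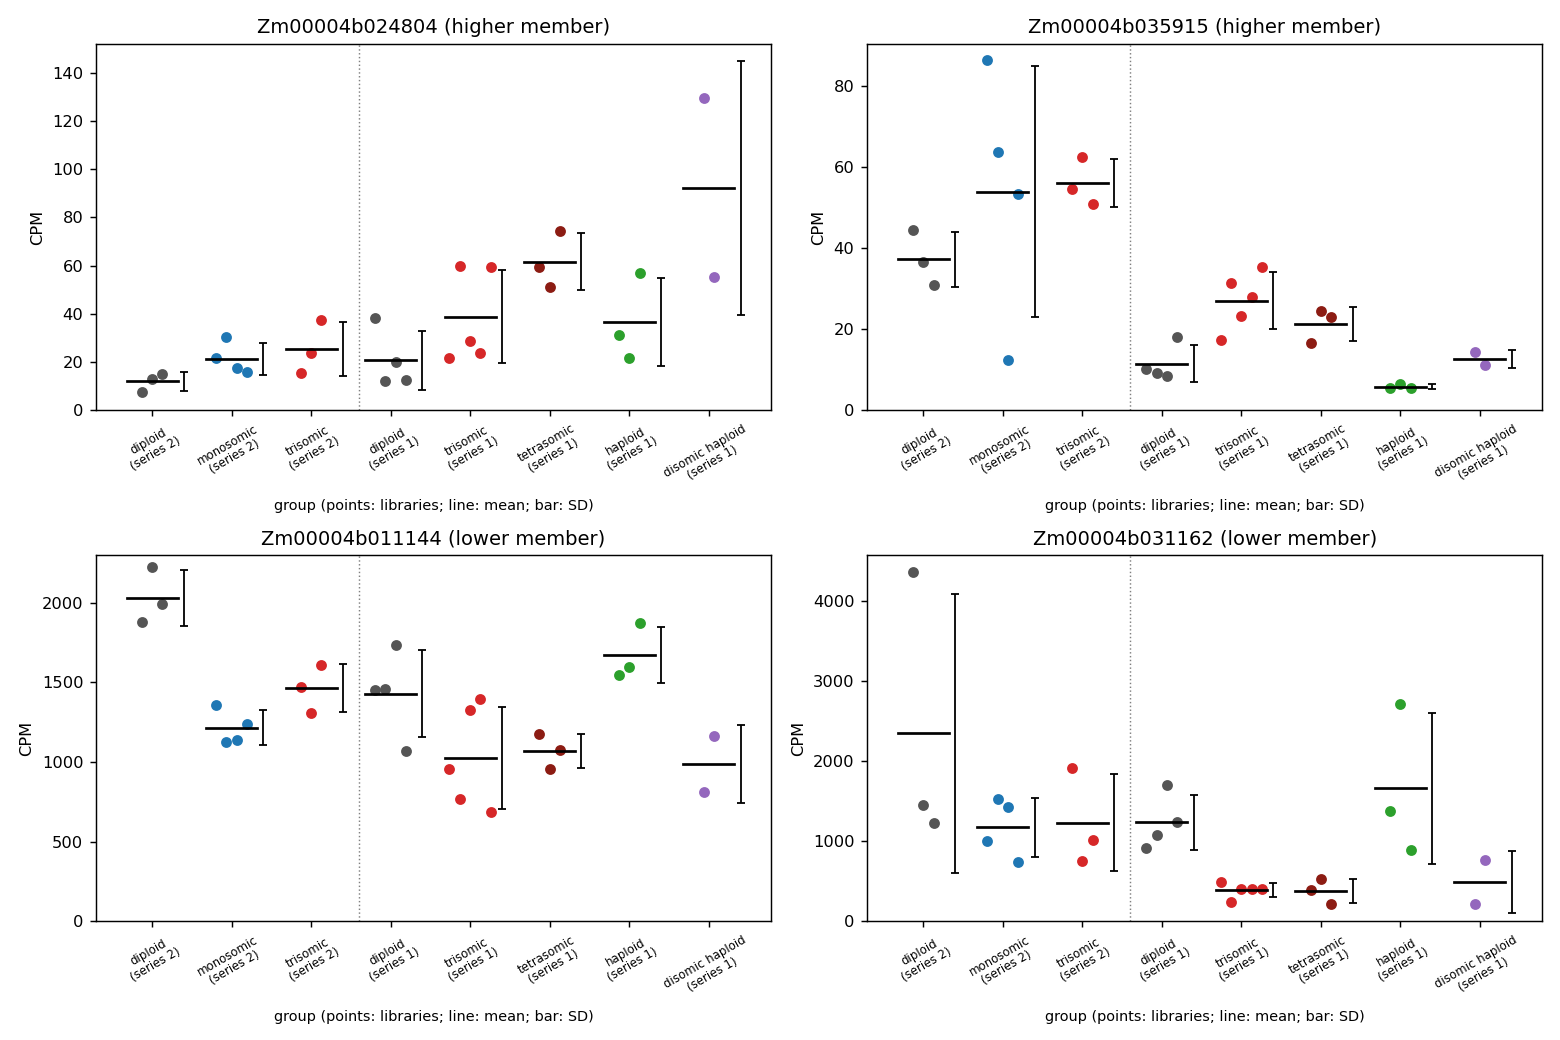
CPM of the 4 named members in each library, by group, with a line at the mean and a bar for the SD beside it. The axes start at 0. In the panel of Zm00004b031162 all trisomic and tetrasomic libraries of series 1 lie below all 4 diploids, between 220 and 529 CPM, and diploid replicate 1 of series 2 stands at 4359.

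Tetrasomics, with 4 copies of 1L, asked whether a further copy goes the same way. The series 2 direction was kept by 53 of the 80 higher members, or 66.2%, against 41.7% of the 13393 genes, and by 16 of the 20 lower members, or 80.0%, against 58.3%. The medians were 0.25 and -0.60 (log2), against -0.06 over the 13393 genes. Among the higher members 35.0% were higher by more than 0.5 and 11.2% were lower by more than 0.5, where 5.11% and 13.7% of the 13393 genes were. Set against all 13397 genes, the higher members averaged -0.35, -0.21 and -0.11 in the 3 tetrasomics, all above the 4 diploids. The lower members averaged 0.06, 0.46 and 0.18, and here tetrasomic replicate 2 lay above diploid replicate 1 at 0.42.

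In edgeR 7 members were called in tetrasomics, 6 in the series 2 direction and 1 against it, where 6.24% of all genes and 2.78% of those outside the run were called. The count was 11 without diploid replicate 1, 3 without diploid replicate 2, diploid replicate 3 or tetrasomic replicate 2, and 1 without tetrasomic replicate 3. All 3 tetrasomics lay above all diploids in 18 of the 80 higher members, against 6.43% of the 13397 genes, and below them in 1. They lay below all diploids in 3 of the 20 lower members, against 7.1%. The gene of rank 10 reached 89.6, 95.3 and 126 CPM, a change of 2.36 in log2 units (SE 0.46, edgeR adjusted p = 0.00472), and the gene of rank 23 one of 1.32 (SE 0.31, edgeR adjusted p = 0.0190).

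Zm00004b024804, of rank 12, is named as the highest-ranked member whose diploid and aneuploid libraries do not overlap in series 2. There it had 7.57, 13.1 and 15.1 CPM in diploids, 21.6, 30.4, 17.6 and 15.7 in monosomics and 15.4, 23.6 and 37.4 in trisomics, so that the highest diploid and the lowest trisomic library were almost level. In series 1 it had 38.3, 12.2, 20.1 and 12.4 CPM in diploids and 59.5, 50.9 and 74.3 in tetrasomics. All 3 tetrasomics lay above the diploids, with a change of 1.49 in log2 units (SE 0.42, edgeR adjusted p = 0.0439), but the adjusted p was 0.0617 without the filter on low counts, and only 1 of the 7 fits that left out a library kept the adjusted p below 0.05, the largest being 0.168. In trisomics its values of 21.8, 60.0, 28.7, 23.9 and 59.5 CPM overlapped those of the diploids (log2 fold change 0.80, SE 0.37, edgeR adjusted p = 0.334).

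Zm00004b031162 was lower in tetrasomics as well, at 391, 529 and 220 CPM, a change of -1.83 in log2 units (SE 0.49, edgeR adjusted p = 0.0365). That call was kept in 1 of 7 fits without a library, with adjusted p-values up to 0.178. Zm00004b011144, the lower member of rank 20, is the only lower member whose series 2 groups do not overlap, and it is one of the most abundant. It had 1876, 2221 and 1989 CPM in diploids of series 2, 1359, 1123, 1139 and 1238 in monosomics and 1473, 1309 and 1610 in trisomics. In series 1 it stood at 1427 ± 273 CPM (SD, n = 4) in diploids, 1026 ± 321 CPM in the 5 trisomics (SD) and 1069 ± 109 CPM in the 3 tetrasomics (SD). Neither difference passed the test, with changes of -0.52 in log2 units (SE 0.28, edgeR adjusted p = 0.415) and -0.54 (SE 0.32, edgeR adjusted p = 0.383).

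Haploids asked whether a change of ploidy without imbalance also moves the members. Of the 80 higher members 55, or 68.8%, had a positive change from diploids, against 42.6% of the 13393 genes, with a median of 0.24 (log2). Of the 20 lower members only 6 were lower, against 57.4%, with a median of 0.29. The haploid libraries differed widely. Set against all 13397 genes, the higher members averaged -0.19, -0.91 and 0.25 in haploid replicates 1, 2 and 3, where the diploids ran from -0.75 to -0.49, and the lower members averaged 0.79, 1.57 and 0.67, where the diploids ran from 0.42 to 1.02.

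Haploid replicate 2 was the lowest haploid in 51 of the 80 higher members and the highest in 14 of the 20 lower ones, and replicate 3 was the highest in 56 of the 80. Without replicate 2 the median of the lower members turned to -0.25 and that of the higher members was 0.41, with 57 higher and 12 lower members in the series 2 direction. Without replicate 3 the median of the higher members was 0.0057, and 45 of the 100 members had the series 2 direction. In edgeR 8 members were called in haploids, 6 in the series 2 direction and 2 against it, where 1.89% of all genes and of those outside the run were called. Leaving out haploid replicates 1, 2 and 3 gave 4, 14 and 2, leaving out diploid replicates 1, 2, 3 and 4 gave 2, 2, 3 and 3, and a fit of the compared groups alone gave 0. The share of all genes called in those fits is not given, so nothing about the members is read from these changes. All 3 haploids lay above all diploids in 11 of the 80 higher members, against 6.11% of the 13397 genes, and below them in 4, against 3.37%.

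The gene of rank 13 had the smallest adjusted p of the members in haploids, at 80.6, 54.6 and 101 CPM against 21.1, 25.4, 23.5 and 19.9 in diploids, a change of 1.69 in log2 units (SE 0.26, edgeR adjusted p = 0.0121). It was higher in tetrasomics too, by 1.25 (SE 0.26, edgeR adjusted p = 0.00801). In trisomics of series 1 its change of 0.58 (SE 0.23, edgeR adjusted p = 0.251) did not pass the test. In series 2 it had 7.83, 18.1 and 8.17 CPM in diploids. Monosomics there had 22.8, 30.6, 14.3 and 17.8 CPM and trisomics 9.23, 10.9 and 39.8. Trisomic replicates 1 and 2, and monosomic replicates 3 and 4, lay within the diploid range of series 2. Zm00004b035915 went the other way in haploids, at 5.37, 6.56 and 5.49 CPM, all below the diploids, with a change of -1.11 in log2 units (SE 0.26, edgeR adjusted p = 0.0416). That call was kept in 1 of 7 fits that left out a library, with adjusted p-values up to 0.149. Zm00004b031162, at 1382, 2715 and 886 CPM, overlapped the diploids.

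Disomic haploids were compared with haploids, a gain of 1L that shares no library with the trisomic or tetrasomic comparison. Of the 20 lower members 18, or 90.0%, were lower than in haploids, against 56.8% of the 13393 genes, with a median log2 fold change of -0.89 against -0.07. Among them 15 were lower by more than 0.5, against 19.0%, and 0 were higher by more than 0.5. Set against all 13397 genes they averaged -0.25 and 0.28 in the 2 disomic haploids and 0.67 to 1.57 in haploids, without overlap. Leaving out each library in turn gave medians of -1.50 to -0.67. The median was -1.50 without disomic haploid replicate 2, a fit in which the spread of the lone remaining library is taken from the other groups.

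The higher members were divided in disomic haploids. Of the 80, 44, or 55.0%, were higher than in haploids, against 43.2% of the 13393 genes, with a median of 0.12 that turned to -0.04 without haploid replicate 2. While 35.0% were higher by more than 0.5, 26.2% were lower by more than 0.5, where 8.70% and 19.0% of the 13393 genes were. Both disomic haploids lay above all 3 haploids in 22 of the 80, and below them in 10, where each direction held 17.8% of the 13397 genes. They lay below all haploids in 9 of the 20 lower members.

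In edgeR 9 members were called in disomic haploids, all of them higher members, 6 in the series 2 direction and 3 against it, where 6.74% of all genes and 3.9% of those outside the run were called. Leaving out haploid replicate 1 gave 2, leaving out disomic haploid replicates 1 and 2 gave 2 and 4, and the count was 0 in a fit of the compared groups alone, in which no gene of the whole table was called. The gene of rank 10 was among the 9, at 90.8 and 91.5 CPM against 18.9, 43.7 and 5.49 in haploids, a change of 1.99 in log2 units (SE 0.53, edgeR adjusted p = 0.0350). Zm00004b035915 was another, at 14.3 and 11.2 CPM, a change of 1.07 in log2 units (SE 0.30, edgeR adjusted p = 0.0418), and in none of 5 fits without a library was its adjusted p below 0.05. Zm00004b031162 had 218 and 771 CPM, both below the haploids, without passing the test (log2 fold change -1.72, SE 0.59, edgeR adjusted p = 0.0925).

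**Figure D4:**
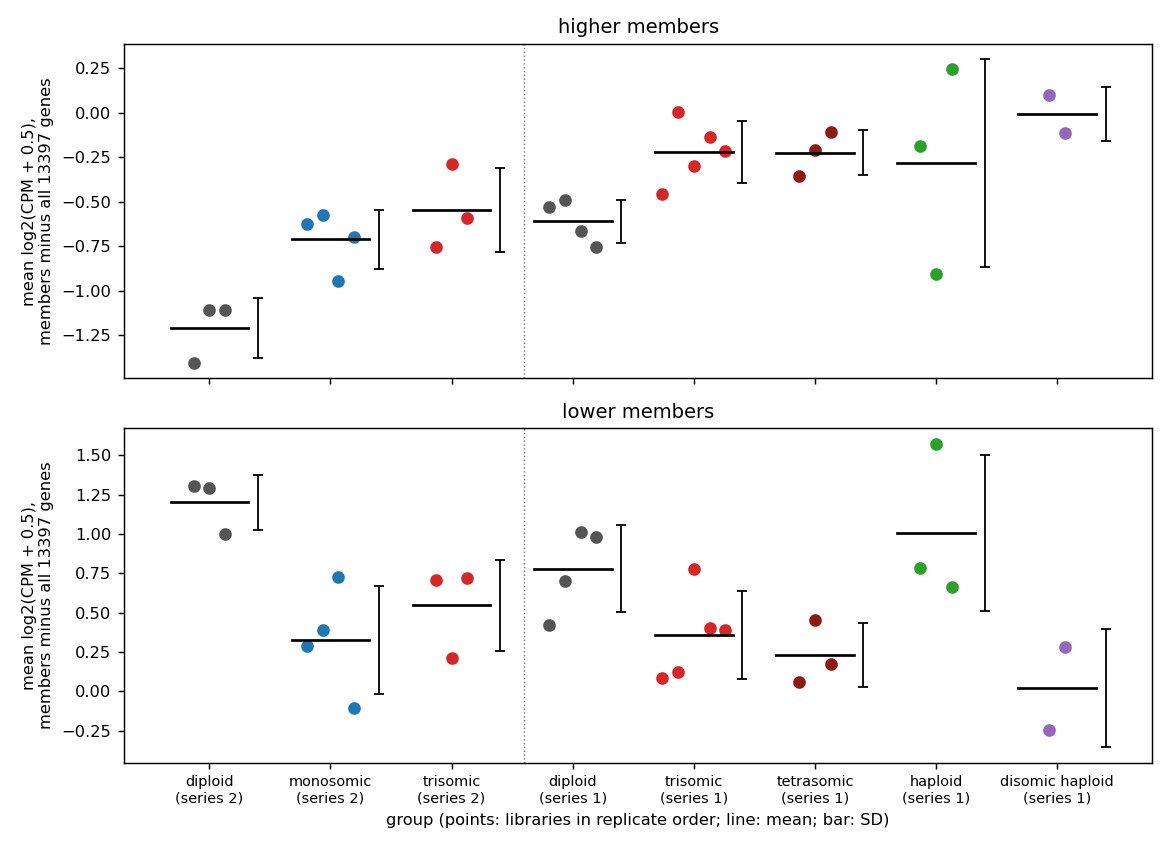
For each library, the mean log2(CPM + 0.5) over the higher members (top) and the lower members (bottom), minus the mean over all 13397 genes, by group, with a line at the group mean and a bar for the SD. Series 2, left of the dotted line, chose the members. In series 1 the higher members lie at -0.75 to -0.49 in diploids and -0.46 to 0.0019 in trisomics, and haploids spread from -0.91 to 0.25.

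Members that went the series 2 way in trisomics of series 1 were counted again in disomic haploids, since these comparisons share no library. Of the 80 higher members 39, or 48.8%, were higher in both, against 23.1% of the 13393 genes, and 7 were higher in neither. Of the 20 lower members 15 were lower in both, against 37.4%. In trisomics and disomic haploids alone the shares were 85.0% and 55.0% of the higher members and 85.0% and 90.0% of the lower. The joint shares largely follow from those and are not a separate result. They describe the members in these libraries, and whether the effects differ between the comparisons was not tested.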

How the data were processed

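Leaf RNA was extracted with TRIzol and made into poly(A)-enriched TruSeq libraries, per the labels' protocols. Bowtie, TopHat, Cufflinks and Cuffdiff are named, with no version, in the submitters' processing notes. No source used here gives the genome build. Raw counts per gene model are whole numbers in the deposited tables, and the deposited RPKM tables equal those counts scaled by library total and 1 length per gene. The DNA libraries were not used here. Members and lists were chosen with earlier results of these data known. The rule was read as 100 genes over both directions.

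Series 1 was fitted whole in edgeR 4.0.16 (R 4.3.3) with TMM, filterByExpr, group as the only term, robust quasi-likelihood F-tests, two-sided, and Benjamini-Hochberg adjustment over all 22435 genes; genes below 0.05 were called. Series 2 was fitted alike over 21825 genes as background. The script was tested on simulated data. Named by rule were, in each direction, the highest-ranked member with no overlap of series 2 groups and the member with the smallest p in series 1 trisomics. Alternatives were DESeq2 1.42.0, limma 3.58.1 on log2(RPKM + 1), other scalings and filters, a replicate block, fits without each library, and other forms of the rule. Precision is limited by the 2 to 5 libraries per group, and by 13199571 to 19860440 reads per library without molecular identifiers. Each p-value sets a change against the spread between these plants' libraries, which was estimated over all groups of a series.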

Additional observations from a re-analysis of the deposited data

Results flagged for a closer look

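The 3 groups of 4 or 5 libraries were tested for a sample far from the others in the averages over both lists and in the 4 named genes. Of these 18 tests, which share libraries and are not independent, 2 found one, and chance gives about 1 in 20. The rule chose the members from series 2 values, so that rate does not hold for the monosomics, whose result is only a description. The named genes were likewise picked partly by values in the groups tested. The average over the higher members in monosomic replicate 3 of series 2 was 3.61 (log2 CPM) against 4.09 to 4.13 in the other monosomics, a gap of 0.92 of the group's whole range. With this library left out of the choice 56 of the 100 members were chosen again. In the trisomics of series 1, replicate 2 had 246 CPM of Zm00004b031162 and the others 403 to 491, a gap of 0.716 of the range on the log2 scale. The call of that gene in trisomics had an edgeR adjusted p of 0.0463 with all libraries and was lost without replicate 2, at 0.111.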

How the results depend on the processing

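The members themselves depended on single libraries and on scaling. Applied without each series 2 library in turn, the rule chose 51 to 73 of the 100 again, 66 with a mean of at least 10 CPM and 50 with TMM-scaled sizes (44 higher, 56 lower). With 100 genes in each direction, 159, 146, 117 and 135 of 200 kept the series 2 direction in series 1 trisomics, tetrasomics, haploids and disomic haploids. With 100 members tested, the counts of 85, 69, 61 and 62 ran from 76 to 89, 62 to 76, 45 to 71 and 55 to 71 over all settings.

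Called members, 4, 7, 8 and 9 in the same order, were 8, 13, 13 and 27 with DESeq2 and 2, 13, 0 and 0 with the compared groups alone. In trisomics they were 2 without a filter and 1 with the replicate block. In tetrasomics and haploids they were 4 and 3 with limma-trend, and 4 and 3 with the replicate block. Leaving out each library gave 0 to 6, 1 to 11, 2 to 14 and 2 to 12. Without haploid replicate 2 the median log2 change of lower members in haploids was -0.25 (0.57 at most without a library) and that of higher members in disomic haploids -0.0394 (0.25 at most). The median of lower members in disomic haploids ran from -1.50 to -0.67. Counts of called members outside the main fits, here and above, mostly stand without the share of all genes called there. They only describe how the calls depend on the setting. The causes were not tested.

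Deviations of same-numbered libraries correlated at -0.20 to 0.33 over 12 pairs. Tetrasomic replicates 1 and 2, at 0.33 and 0.29, matched their own number best and replicate 3, at -0.06, did not, so the numbers were not taken to pair plants. With the replicate block the edgeR adjusted p of Zm00004b031162 was 0.154 in trisomics and 0.0864 in tetrasomics, that of Zm00004b024804 in tetrasomics 0.102, and that of Zm00004b035915 in haploids 0.0556 and in tetrasomics 0.00917.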
